A study of Homo sapiens with 12 samples.

Results

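143B cells, an established human osteosarcoma line, were compared after exposure to an unheated magnetic borosilicate glass, the group titled M-BSG, with untreated control cells, the group titled NC. Members were chosen by sample title: M-BSG replicates 1 to 3 and NC replicates 1 to 3, which are 6 of the 12 RNA-seq libraries of the series. Gene-level counts covered 24180 symbols, of which 15407 passed the low-count filter and were tested and 8773 were not. M-BSG carries the material name 5-MNP-BSG in its titles. The other groups of 3 libraries are BSG, titled for the glass with no magnetic prefix, and M-BSG-Hot, titled 5-MNP-BSG (+). The labels give every library, the NC ones included, the same treatment text, which names 5-MNP-BSG and an alternating magnetic field set at 20 A, so it does not say which group saw the material or the field. The wild-type cells were kept at 37 °C and 5% CO2 in DMEM plus 10% serum. The sources used here give neither dose nor exposure time. Whether the 3 libraries of a group are separate cultures is not stated, so p-values measure spread between libraries only, and that spread may be technical. Because 143B is 1 line, the comparison speaks of that line alone.

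Borosilicate bioactive glasses dissolve in culture medium and release ions, among them borate, silicate, calcium and sodium, which raises the local pH. Cells that meet growth factors, stress or altered ions commonly answer first with immediate-early genes, a set that needs no new protein to be transcribed and that includes the FOS, JUN, EGR, KLF and NR4A transcription factors. Later members of the same response include phosphatases, RNA-binding proteins and G-protein regulators that switch the signals off again. Their transcripts are short-lived, so their level follows recent transcription closely.

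Total counts per library ran between 36505415 and 37551563 for M-BSG, against 34434993 to 36790336 for NC, and a count of 0 allowed at most 0.0799 to 0.0822 CPM (counts scaled to library size) in M-BSG and 0.0815 to 0.0871 CPM in NC, covering counting error only. M-BSG 1 stood apart from its replicates: a chi-square of gene counts, divided by its degrees of freedom, was 60.4 against M-BSG 2 and 34.9 against M-BSG 3, where M-BSG 2 and 3 gave 8.71 and NC pairs gave 3.43 to 10.4. Ribosomal protein genes took 9.95% of counts in M-BSG 1, 7.55% and 8.13% in M-BSG 2 and 3, and 7.74% to 8.39% in NC. Of 15 mesenchymal markers, 14 were detected in all 6 libraries and THY1 was at 0, with summed levels of 6842 to 7290 CPM in M-BSG and 6861 to 7241 CPM in NC. Summed immune markers stood at 126.3 to 149.4 CPM in M-BSG and 140.3 to 156.8 CPM in NC, with HLA-DRA at 0 in all 6 libraries. Nearly all of this sum was 1 gene other than CD14, at 125 to 147.6 CPM in M-BSG and 139.2 to 155.5 CPM in NC. CD14 and the rest were therefore scarce. Of the 2 immune markers tested, CD14 rose (log2 fold change 1.07, SE 0.288, edgeR adjusted p = 0.042; a call lost at adjusted p 0.0602 to 0.186 without any M-BSG library or any NC library, or with no count filter, only the 2 groups fitted, replicate block). Epithelial markers summed to 1214 to 1432 CPM in M-BSG and 1252 to 1375 CPM in NC. Most of this sum lay in the highest single marker, at 880.3 to 1040 CPM in M-BSG and 884.1 to 981.9 CPM in NC. Endothelial markers summed to 226.9 to 240.9 CPM in M-BSG and 256.7 to 260.6 CPM in NC, and muscle, fat and cartilage markers to 185.6 to 229.8 CPM in M-BSG and 267.5 to 274.5 CPM in NC. Among the cartilage markers SOX9 fell (-0.38; a call lost at adjusted p 0.0568 to 0.0718 without M-BSG 1 or 3 or any NC library). These last 2 sums did not overlap between the groups, and each was carried by 1 gene. TIE1 held 205.3 to 219 CPM of the endothelial sum in M-BSG and 236 to 236.6 CPM in NC, and none of the 5 endothelial markers tested was called, with a median log2 fold change of 0.015. SOX9 held 150.8 to 194.8 CPM of the other sum in M-BSG and 232.3 to 241.9 CPM in NC. Their part in the results was not tested.

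In M-BSG cells a set of signalling and transcription-factor genes stood many-fold above NC, led by FOS, FOSB and RASD1, while the nuclear RNA NEAT1 and several microRNA host transcripts fell. The quasi-likelihood test of edgeR at a Benjamini-Hochberg adjusted p under 0.05 called 496 genes higher, 3.22% of those tested, and 483 genes lower, 3.13%, in all 979 genes or 6.35%. These shares are the background for every list count against NC below, and a short list with few or no calls can lie near them. At least 2-fold changes made up 212 of the higher genes (1.38% of those tested) and 137 of the lower ones (0.889%). The median log2 fold change over all tested genes was -0.007, the median of the called genes was 0.79 on the higher side and -0.68 on the lower side, and the extremes were 8.00 and -4.02. All M-BSG libraries lay above all NC libraries for 1913 genes (12.4%) and below them for 2323 genes (15.1%). Called genes that were higher had a median length of 3259 bases, those that were lower 4617 bases, and all tested genes 3986 bases. Without TMM scaling, on library size only, 406 genes were higher and 671 lower. Without M-BSG 1 the counts were 448 and 345. They were 371 and 312 without M-BSG 2, 327 and 255 without M-BSG 3, 317 and 261 without NC 1, 295 and 248 without NC 2, and 306 and 254 without NC 3.

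**Figure D1:**
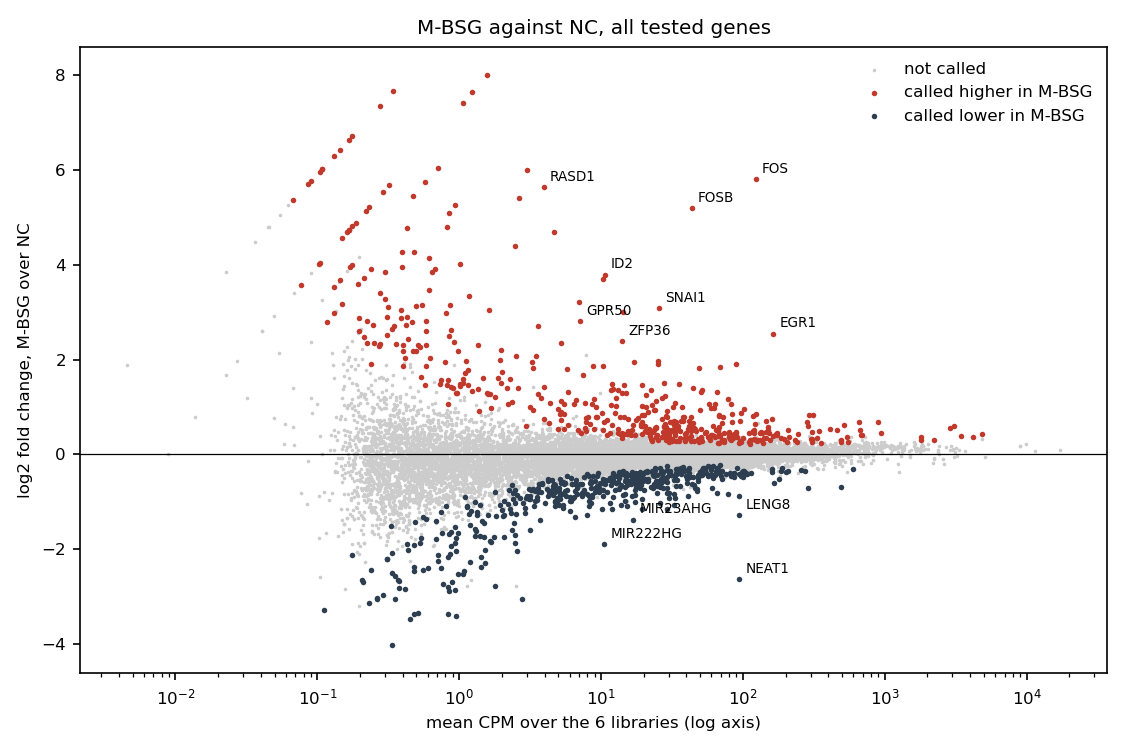
Log2 fold change of M-BSG over NC (y) against the mean CPM over the 6 libraries (x, log axis) for the 15407 tested genes, 1 point per gene. Red points are the 496 genes called higher, dark points the 483 called lower and grey points the rest, and labels mark genes described in the text, such as FOS at 5.81 and NEAT1 at -2.62.

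AP-1 is a pair of FOS-family and JUN-family proteins bound to DNA, and EGR1 to EGR4 are zinc finger transcription factors, of which EGR1 is held back by the corepressors NAB1 and NAB2. Of 20 AP-1 and EGR genes tested, 8 rose, none fell and 12 were not called. FOS had 224, 248 and 256 CPM in the M-BSG libraries, against 4.96, 4.28 and 3.73 CPM in the NC libraries. The groups stood far apart, and the 3 M-BSG values lay within a narrow band (log2 fold change 5.81, SE 0.181, edgeR adjusted p = 3.88e-10). FOSB, a close relative of FOS, had 80.5, 82.1 and 91.3 CPM in the M-BSG libraries, against 2.24, 2.78 and 1.87 CPM in the NC libraries (log2 fold change 5.20, SE 0.284, edgeR adjusted p = 9.07e-08). EGR1, which activates growth and feedback genes, had 272, 243 and 327 CPM in the M-BSG libraries, against 48.5, 48.2 and 47.3 CPM in the NC libraries (log2 fold change 2.55, SE 0.208, edgeR adjusted p = 5.93e-06). EGR2 had 16.6, 17.4 and 23.1 CPM in the M-BSG libraries, against 1.73, 1.58 and 1.1 CPM in the NC libraries (log2 fold change 3.69, SE 0.341, edgeR adjusted p = 1.48e-05). No library of either group crossed over for these 4 genes, while NC levels ran from little over 1 CPM for EGR2 to nearly 50 CPM for EGR1.

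On the JUN side of AP-1, called genes had smaller fold changes than FOS and FOSB. JUNB had 82.1, 67.1 and 69.1 CPM in the M-BSG libraries, against 32.8, 26.7 and 28.6 CPM in the NC libraries (log2 fold change 1.31, SE 0.163, edgeR adjusted p = 1.92e-04). JUND had 34.6, 27.3 and 32.4 CPM in the M-BSG libraries, against 17.2, 15.6 and 16.5 CPM in the NC libraries (log2 fold change 0.94, SE 0.121, edgeR adjusted p = 2.63e-04). JUN itself was not called, with 347, 357 and 332 CPM in the M-BSG libraries, against 407, 400.3 and 401 CPM in the NC libraries (log2 fold change -0.22, edgeR adjusted p = 0.115), so its M-BSG libraries all lay below the NC ones without passing the test. It was called lower on library size only and with the gene length trend removed, 1 call in each of these fits of the list. EGR3 (1.14 on the log2 scale) and ATF3 (1.05), a stress-induced partner of JUN, also rose, though their calls were not followed in the alternative fits. FOSL1 (0.16), FOSL2 (-0.28), the serum response factor gene SRF (-0.063) and its partners ELK1 (-0.14) and ELK4 (-0.32) were not called. Per length, mean FOS stood at 115 FPKM in M-BSG and 2.13 FPKM in NC, and mean JUN at 105 FPKM in M-BSG and 128 FPKM in NC. On that scale FOS was far below JUN in NC and at a like level in M-BSG.

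**Figure D2:**
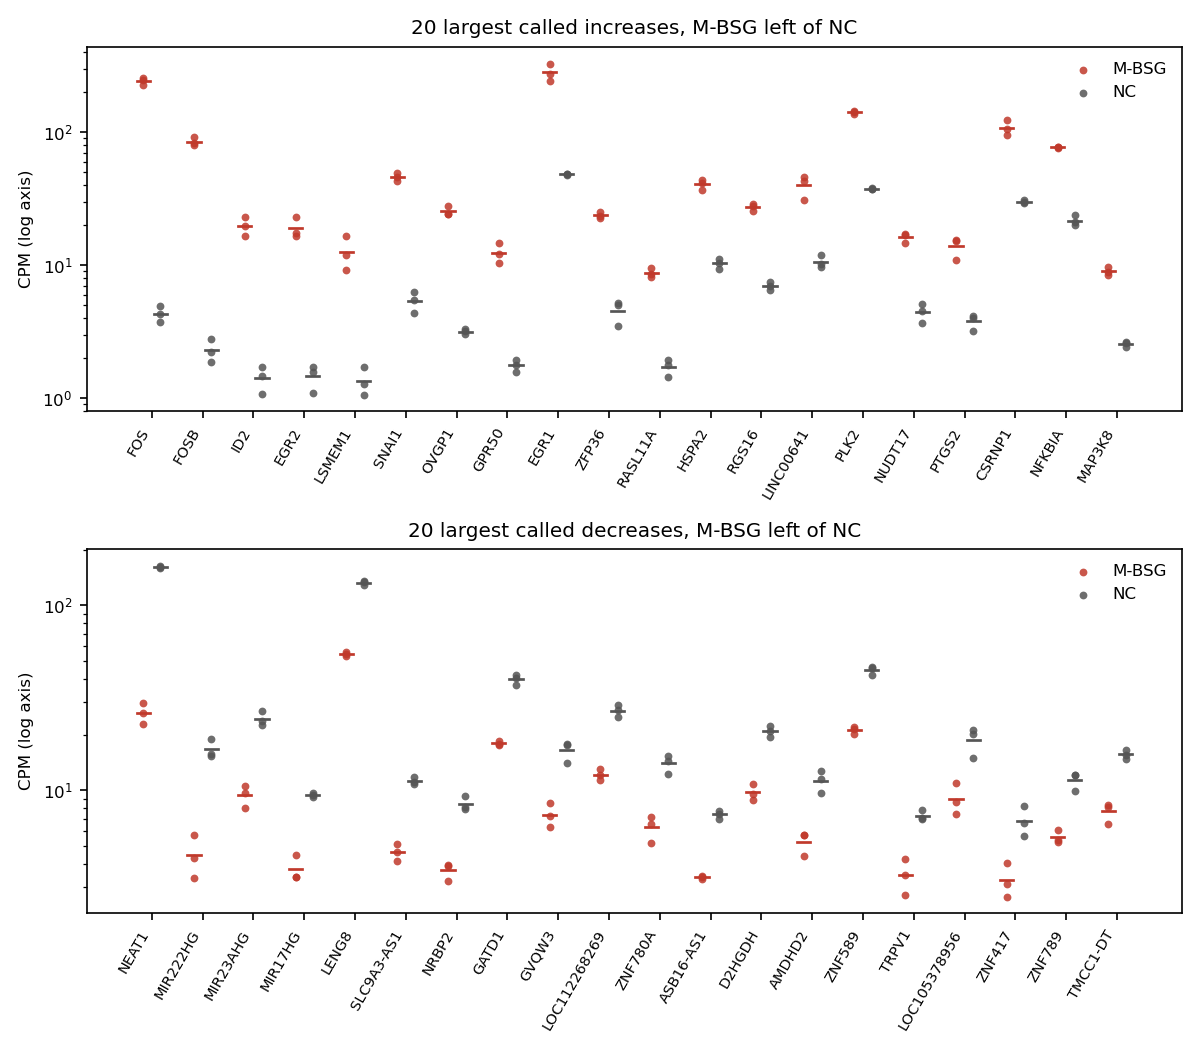
CPM per library (log axis) of the 20 genes with the highest log2 fold change (upper panel) and the 20 with the lowest (lower panel) among called genes averaging at least 5 CPM whose groups did not overlap. Points are libraries, short bars are group means of 3, red M-BSG stands left of grey NC, and FOS, for example, lies at 224 to 256 CPM in M-BSG and 3.73 to 4.96 CPM in NC.

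Of 27 other immediate-early genes tested, 13 rose, none fell and 14 were not called, and 13 again rose without M-BSG 1. Their median log2 fold change was 0.42, beside -0.007 over all genes. CSRNP1, a nuclear protein, had 94.4, 105 and 124 CPM in the M-BSG libraries, against 30.9, 29.2 and 29.8 CPM in the NC libraries (log2 fold change 1.84, SE 0.119, edgeR adjusted p = 4.46e-07). SGK1, a kinase that controls sodium transport, had 93.2, 95 and 92.9 CPM in the M-BSG libraries, against 34.4, 39.5 and 38.4 CPM in the NC libraries (log2 fold change 1.32, SE 0.0794, edgeR adjusted p = 2.52e-07). The M-BSG values of SGK1 differed from each other by under 3 CPM. KLF5, a Krüppel-like activator of proliferation genes, had 29, 33.4 and 34 CPM in the M-BSG libraries, against 12.6, 13 and 12 CPM in the NC libraries (log2 fold change 1.36, SE 0.112, edgeR adjusted p = 5.93e-06). IER5, which acts on the heat shock factor HSF1, stood at 86.6 ± 3.16 CPM in M-BSG and 48.5 ± 0.942 CPM in NC (SD, n = 3 each), and KLF4 at 38.7 ± 1.68 CPM in M-BSG and 24.1 ± 0.726 CPM in NC (SD, n = 3 each). NR4A2 (1.82), an orphan nuclear receptor, rose, while NR4A1 (0.22) was not called, nor were BTG2 (0.24), KLF6 (0.10) and KLF10 (0.13).

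Genes that answer cyclic AMP through the activator CREB overlapped with this set. Of 24 tested, 9 rose and none fell (8 rose without M-BSG 1), with a median of 0.16. RASD1, a dexamethasone-inducible small GTPase, had 7.91, 9.27 and 6.05 CPM in the M-BSG libraries, against 0.255, 0.13 and 0.0789 CPM in the NC libraries (log2 fold change 5.64, SE 0.308, edgeR adjusted p = 9.07e-08). Its NC values lay close to the detection floor, so the size of the fold change rests on a few counts. CITED2, a coactivator-binding protein, had 38.5, 36.6 and 36.9 CPM in the M-BSG libraries, against 16.6, 16.3 and 15.8 CPM in the NC libraries (log2 fold change 1.20, SE 0.0986, edgeR adjusted p = 5.93e-06). SIK1, a kinase that feeds back on CREB coactivators, had 0.958, 1.12 and 1.53 CPM in the M-BSG libraries, against 0.511, 0.467 and 0.316 CPM in the NC libraries (log2 fold change 1.47, SE 0.313, edgeR adjusted p = 0.0109; a call lost at adjusted p 0.0611 to 0.0656 without M-BSG 3 or NC 3). PER1, a clock repressor, had 22.8, 29 and 25.2 CPM in the M-BSG libraries, against 18.2, 18.5 and 19.5 CPM in the NC libraries (log2 fold change 0.46, SE 0.0993, edgeR adjusted p = 0.0129; a call lost at adjusted p 0.0608 to 0.065 without M-BSG 2 or NC 1 or 2). CREM (0.079), PDE4B (0.20) and PDE4D (-0.011), which are classical CREB-induced brakes, were not called. Of 15 glucocorticoid-response genes 6 rose, namely RASD1, RGS2, SGK1, DUSP1, PER1 and ERRFI1, and FKBP5 (-0.13) and TSC22D3 (-0.051), which glucocorticoids induce in most cells, were not called. Whether cyclic AMP or glucocorticoid signalling acted was not tested.

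RAS-like GTPases and regulators of G-protein signalling (RGS) gave 10 higher and no lower calls among 25 tested, and 15 were not called, with a median log2 fold change of 0.22. Without M-BSG 1, 8 rose and 1 fell. RGS16, which speeds G-protein alpha subunits back to their resting state, had 25.7, 27.7 and 28.6 CPM in the M-BSG libraries, against 6.98, 7.53 and 6.55 CPM in the NC libraries (log2 fold change 1.96, SE 0.173, edgeR adjusted p = 1.02e-05). RGS2, of the same family, had 23.7, 20.9 and 19.3 CPM in the M-BSG libraries, against 7.15, 8.08 and 7.94 CPM in the NC libraries (log2 fold change 1.46, SE 0.111, edgeR adjusted p = 3.01e-06). Both genes were at like CPM in NC and at like CPM in M-BSG. RHOB, a short-lived endosomal GTPase, had 77.4, 75.2 and 81.2 CPM in the M-BSG libraries, against 38.8, 34.5 and 38.1 CPM in the NC libraries (log2 fold change 1.07, SE 0.108, edgeR adjusted p = 3.08e-05). RND3, which opposes RHOA and loosens actin fibres, had 81.6, 86 and 80.9 CPM in the M-BSG libraries, against 42.9, 40.9 and 42.2 CPM in the NC libraries (log2 fold change 0.98, SE 0.0732, edgeR adjusted p = 2.71e-06). GEM, a brake on voltage-gated calcium channels, had 26.6, 36.5 and 30.6 CPM in the M-BSG libraries, against 15.8, 15.7 and 17.5 CPM in the NC libraries (log2 fold change 0.93, SE 0.104, edgeR adjusted p = 7.53e-05). In all 3 genes the M-BSG values lay above every NC value, GEM with the widest spread among them. RND1 (2.71), a close relative of RND3, rose too, though its call was not followed in the alternative fits. RHOA (0.041), RHOC (0.13), RGS3 (0.097) and RGS4 (0.21) were not called. RASL11A, another RAS-like protein among the 20 highest, had 8.08, 9.54 and 8.65 CPM in the M-BSG libraries, against 1.93, 1.79 and 1.45 CPM in the NC libraries (log2 fold change 2.35, SE 0.21, edgeR adjusted p = 1.18e-05).

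Feedback on ERK signalling moved in part. Of 24 MAP kinase phosphatases, sprouty proteins and ETV factors tested, 5 rose and 1 fell. DUSP10, a phosphatase for JNK and p38, had 8.38, 8.02 and 8.51 CPM in the M-BSG libraries, against 3.52, 3.25 and 3.23 CPM in the NC libraries (log2 fold change 1.32, SE 0.142, edgeR adjusted p = 5.80e-05). DUSP1, the immediate-early phosphatase of all 3 MAP kinase branches, had 50.1, 50 and 56.2 CPM in the M-BSG libraries, against 33.5, 30.4 and 31.2 CPM in the NC libraries (log2 fold change 0.72, SE 0.1, edgeR adjusted p = 5.00e-04). DUSP8 stood at 7.43 ± 0.514 CPM in M-BSG and 3.53 ± 0.678 CPM in NC and SPRY2 at 78.1 ± 4.3 CPM in M-BSG and 55.2 ± 3.02 CPM in NC (SD, n = 3 each). The usual readouts of sustained ERK activity were not called: DUSP6 had 232, 263 and 242 CPM in M-BSG, against 254, 247 and 253 CPM in NC, with overlapping groups, and DUSP4 (0.053), SPRY4 (0.012), ETV4 (0.065) and ETV5 (-0.013) lay near 0 on the log2 scale. ERK activity itself was not tested. DUSP5, an ERK phosphatase, fell (-0.28), a call lost at adjusted p 0.0513 to 0.11 without any M-BSG library or any NC library, or with no count filter. ERRFI1, a feedback inhibitor of the EGF receptor, rose (0.35), a call lost at adjusted p 0.0627 to 0.0752 without M-BSG 2 or 3 or any NC library, or with library size only. Among 9 EGF-family genes the only call was HBEGF, a membrane-anchored ligand, which had 42.7, 42 and 39.1 CPM in the M-BSG libraries, against 15.2, 13.4 and 15 CPM in the NC libraries (log2 fold change 1.5, SE 0.122, edgeR adjusted p = 5.93e-06). AREG (-0.17), TGFA (-0.12) and the receptor EGFR (-0.26) were not called.

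ID proteins lack a DNA-binding region and block basic helix-loop-helix factors, and in many cells they are targets of BMP signalling. ID2 had 23.1, 19.6 and 16.7 CPM in the M-BSG libraries, against 1.47, 1.71 and 1.08 CPM in the NC libraries (log2 fold change 3.79, SE 0.184, edgeR adjusted p = 3.26e-08). ID4 had 3.23, 3.17 and 3.27 CPM in the M-BSG libraries, against 0.596, 0.675 and 0.815 CPM in the NC libraries (log2 fold change 2.21, SE 0.201, edgeR adjusted p = 1.32e-05). ID1 (-0.33) and ID3 (-0.079), the family members most often used as BMP readouts, were not called, nor were SMAD6 (-0.10), BMP2 (-0.35) and BMP4 (-0.47). Whether BMP signalling acted was not tested. Of 29 genes of the BMP and TGF-beta list 3 rose, ID2, ID4 and the inhibitor SMAD7 (which stood at 42.1 ± 1.6 CPM in M-BSG and 30.1 ± 1.95 CPM in NC), and 1 fell. The list's median was -0.0066, and 0.0054 without M-BSG 1, where 3 rose and none fell. SNAI1, a repressor of epithelial genes, had 42.5, 49 and 45.7 CPM in the M-BSG libraries, against 6.27, 4.39 and 5.5 CPM in the NC libraries (log2 fold change 3.09, SE 0.149, edgeR adjusted p = 3.26e-08), and TWIST1 had 13.9, 12.9 and 13.6 CPM in the M-BSG libraries, against 9.73, 9.37 and 10.3 CPM in the NC libraries (log2 fold change 0.46, SE 0.0953, edgeR adjusted p = 0.0099), a call lost without NC 2 (adjusted p 0.0613). SNAI2 (-0.0072), ZEB1 (0.052), ZEB2 (0.046) and CDH2 (-0.019), an adhesion gene of mesenchymal cells, were not called.

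NF-kB is held in the cytoplasm by IkB proteins whose genes it activates. Of 21 subunits and inhibitors, 3 rose and 1 fell. NFKBIA, which encodes the inhibitor IkB-alpha, had 77.1, 75.9 and 77.3 CPM in the M-BSG libraries, against 23.7, 19.9 and 21 CPM in the NC libraries (log2 fold change 1.83, SE 0.113, edgeR adjusted p = 3.14e-07). NFKBIZ, a nuclear IkB protein, had 13.9, 19.3 and 17.5 CPM in the M-BSG libraries, against 5.81, 7.35 and 6.7 CPM in the NC libraries (log2 fold change 1.35, SE 0.188, edgeR adjusted p = 4.81e-04). NFKBID, its relative, fell and had 0.685, 0.826 and 0.655 CPM in the M-BSG libraries, against 2.1, 3.04 and 2.68 CPM in the NC libraries (log2 fold change -1.85, SE 0.338, edgeR adjusted p = 0.00411). TNFAIP3, a ubiquitin-editing brake, rose by 0.54 on the log2 scale, with an edgeR adjusted p of 0.046 (a call lost at adjusted p 0.0544 to 0.193 without M-BSG 2 or 3 or any NC library, or with library size only, limma-voom, the strict filter). RELA (-0.02), NFKB1 (0.18), NFKB2 (-0.019), RELB (0.14) and BIRC3 (0.14) were not called. MAP3K8, a kinase upstream of ERK and NF-kB, had 8.43, 9.75 and 8.92 CPM in the M-BSG libraries, against 2.67, 2.62 and 2.42 CPM in the NC libraries (log2 fold change 1.81, SE 0.172, edgeR adjusted p = 1.82e-05).

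Inflammatory ligands were low. Of 21 cytokine, chemokine and prostaglandin genes 5 rose and none fell, but without M-BSG 1 only 3 rose and 1 fell. PTGS2, the inducible cyclooxygenase, had 11, 15.3 and 15.4 CPM in the M-BSG libraries, against 4, 3.22 and 4.15 CPM in the NC libraries (log2 fold change 1.87, SE 0.21, edgeR adjusted p = 7.71e-05). CXCL8, a neutrophil chemokine, had 8.32, 10.7 and 7.36 CPM in the M-BSG libraries, against 3.57, 4.34 and 4.71 CPM in the NC libraries (log2 fold change 1.06, SE 0.209, edgeR adjusted p = 0.00674). CXCL1 had 1.45, 1.31 and 1.39 CPM in the M-BSG libraries, against 0.454, 0.571 and 0.657 CPM in the NC libraries (log2 fold change 1.29, SE 0.251, edgeR adjusted p = 0.00613). CXCL2 (1.57; a call lost at adjusted p 0.0516 to 0.0972 without M-BSG 1 or 3 or any NC library, or with limma-voom) and CCL2 (1.5; a call lost at adjusted p 0.0629 to 0.123 without any M-BSG library or NC 1 or 2) were under 2 CPM in every library. IL6 (1.00), IL1B (0.26), LIF (-0.73) and VEGFA (-0.23) were not called. Of 17 tested genes for ZFP36 relatives and other binders of AU-rich RNA 2 rose, 1 fell and 14 were not called, with a median of 0.054, which was 0.10 without M-BSG 1 (3 rose and 1 fell) and -0.0046 on library size only. ZFP36, which destabilises transcripts and binds AU-rich elements, had 23.5, 22.5 and 25.3 CPM in the M-BSG libraries, against 5.16, 5.04 and 3.47 CPM in the NC libraries (log2 fold change 2.38, SE 0.206, edgeR adjusted p = 8.58e-06), and ZC3H12A, an RNase that cuts inflammatory transcripts, had 15.3, 17.9 and 19.6 CPM in the M-BSG libraries, against 7.6, 5.45 and 5.89 CPM in the NC libraries (log2 fold change 1.48, SE 0.162, edgeR adjusted p = 6.66e-05). ZFP36L1 (-0.064) and ZFP36L2 (0.26) were not called. TIA1, a stress-granule protein that binds such elements, fell and had 31.1, 39.8 and 33.2 CPM in the M-BSG libraries, against 49.9, 54.5 and 55.6 CPM in the NC libraries (log2 fold change -0.62, SE 0.104, edgeR adjusted p = 0.00227). Of 26 interferon-stimulated genes only OAS2 was called, at 0.246, 0.48 and 0.245 CPM in M-BSG and 0.0284, 0 and 0 CPM in NC.

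HEXIM1 sequesters P-TEFb, the kinase that releases paused RNA polymerase II. It had 88.2, 87 and 81.9 CPM in the M-BSG libraries, against 43.4, 40.1 and 40 CPM in the NC libraries (log2 fold change 1.06, SE 0.0873, edgeR adjusted p = 5.93e-06). BRD2, a bromodomain protein that binds acetylated histones, had 348, 380.0 and 388 CPM in the M-BSG libraries, against 213, 207 and 206 CPM in the NC libraries (log2 fold change 0.83, SE 0.0776, edgeR adjusted p = 1.59e-05). These were the 2 calls among 16 genes of that list, all in the higher direction. CDK9 (-0.089) and CCNT1 (0.094), the core of the kinase, were not called. Of 24 serum response factor targets of the actin type none was called in either direction, and ACTB (-0.054), VCL (-0.066), TAGLN (-0.11) and MYH9 (-0.20) were among them. Over all tested genes the share called was 6.35%, so few calls are due in a list of this size. At an unadjusted p under 0.05 edgeR found 2826 genes in all, and in this list 1 gene was called lower on library size only and 2 with the gene length trend removed. Of 26 YAP-TEAD targets 2 rose and 1 fell (11.5% called, beside 6.35% of all tested genes). These were AMOTL2 (0.38; a call lost at adjusted p 0.0765 to 0.181 without M-BSG 2 or 3 or any NC library, or with library size only), CCN2 (0.31; a call lost at adjusted p 0.0504 to 0.159 without M-BSG 2 or 3 or any NC library, or with the length trend removed, library size only, no count filter, replicate block, the strict filter) and, on the lower side, AXL (-0.31; a call lost at adjusted p 0.0593 to 0.16 without any M-BSG library or any NC library, or with RLE scaling). None of 14 calcineurin-NFAT genes was called, beside 6.35% of all tested genes, with RCAN1 at 0.25, and 1 was called higher with the gene length trend removed.

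Promoter sequences from RefSeq (GRCh38.p14; 250 bases before to 50 after the start site) were found for 17 of the 20 highest genes, and 4 of these held a serum response element CArG box, an NF-kB site or a full cAMP response element. They are printed because EGR1, HSPA2, NFKBIA and MAP3K8 are among the genes that rose most. Capitals mark the matched motif. The EGR1 promoter is at chr5:138465229-138465528 on the plus strand, with CArG boxes at positions 146 to 155 and 168 to 177 of the window. The HSPA2 promoter is at chr14:64540491-64540790 on the plus strand, with an NF-kB site at 201 to 210. The NFKBIA promoter is at chr14:35404700-35404999 on the minus strand, with an NF-kB site at 170 to 179. The MAP3K8 promoter is at chr10:30433771-30434070 on the plus strand, with an NF-kB site at 222 to 231. Positions count from 1 at the 5′ end.
EGR1: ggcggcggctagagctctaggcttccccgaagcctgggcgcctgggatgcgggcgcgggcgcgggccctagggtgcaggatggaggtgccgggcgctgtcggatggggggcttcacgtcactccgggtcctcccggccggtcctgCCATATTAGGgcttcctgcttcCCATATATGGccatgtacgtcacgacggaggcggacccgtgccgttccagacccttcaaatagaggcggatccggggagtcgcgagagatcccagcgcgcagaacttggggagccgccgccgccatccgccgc
HSPA2: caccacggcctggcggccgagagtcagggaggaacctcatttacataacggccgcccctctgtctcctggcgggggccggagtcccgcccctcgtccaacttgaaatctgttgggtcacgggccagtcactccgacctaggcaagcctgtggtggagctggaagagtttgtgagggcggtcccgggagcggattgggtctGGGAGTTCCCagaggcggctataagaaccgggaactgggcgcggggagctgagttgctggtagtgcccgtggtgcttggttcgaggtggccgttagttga
NFKBIA: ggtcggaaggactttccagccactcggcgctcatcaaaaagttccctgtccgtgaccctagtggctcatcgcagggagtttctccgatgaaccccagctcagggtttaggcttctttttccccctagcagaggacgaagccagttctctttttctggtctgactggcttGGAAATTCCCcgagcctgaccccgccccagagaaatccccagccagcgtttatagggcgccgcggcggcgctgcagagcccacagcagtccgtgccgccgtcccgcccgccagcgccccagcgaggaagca
MAP3K8: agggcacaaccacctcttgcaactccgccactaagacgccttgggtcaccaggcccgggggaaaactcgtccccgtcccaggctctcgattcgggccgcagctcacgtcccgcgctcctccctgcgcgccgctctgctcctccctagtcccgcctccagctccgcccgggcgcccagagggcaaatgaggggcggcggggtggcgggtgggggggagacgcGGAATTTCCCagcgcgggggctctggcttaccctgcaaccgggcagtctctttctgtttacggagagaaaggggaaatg

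Motifs were counted on both strands in the promoter sequences found. These covered 149 of the 212 genes called at least 2-fold higher, 104 of the 137 called at least 2-fold lower and 12052 of the 15407 tested genes. The CArG box, known from the FOS and EGR1 promoters, was in 3.36% of higher, 2.88% of lower and 1.05% of all promoters. Among the 17 highest genes with a promoter sequence, only EGR1 held it within this window. The NF-kB site was in 11.4% of higher, 4.81% of lower and 6.63% of all. The AP-1 site TGANTCA was in 7.38%, 4.81% and 4.95%, and the cAMP response element TGACGTCA in 2.68%, 2.88% and 3.15%, in the same order of sets. The core TATAAA stood out from these: 24.8% of higher promoters held it, against 4.81% of lower and 5.99% of all. Starting 40 to 20 bases before the start site, a window chosen after seeing the first count, TATAAA was in 28 of the higher promoters (18.8%), 2 of the lower (1.92%) and 257 of all (2.13%). GC-rich motifs ran the other way: GGGCGG, the SP1 site, was in 53% of higher, 60.6% of lower and 69.1% of all, and the EGR site GCGNGGGCG in 6.71%, 16.3% and 15.8%. The E-box CACGTG was in 5.37% of higher, 10.6% of lower and 9.96% of all, the heat shock element dimer GAANNTTC in 4.03%, 3.85% and 4.53%, and the half-site TGACG, which lies within the full cAMP element, in 28.9%, 32.7% and 33.3%. These shares are descriptions of letters in a window and were given no test.

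Of 15 HSP70-family genes 6 rose, none fell and 9 were not called. HSPA2, a constitutive HSP70 best known from testis, had 36.4, 43.5 and 41.6 CPM in the M-BSG libraries, against 10.3, 11.2 and 9.39 CPM in the NC libraries (log2 fold change 1.97, SE 0.118, edgeR adjusted p = 2.52e-07). HSPA1B, a heat-inducible HSP70, had 30.4, 28.1 and 33.5 CPM in the M-BSG libraries, against 16.7, 15.3 and 12.9 CPM in the NC libraries (log2 fold change 1.03, SE 0.131, edgeR adjusted p = 2.27e-04), and HSPA1A had 18.6, 17.1 and 19.6 CPM in the M-BSG libraries, against 11.6, 9.27 and 11.1 CPM in the NC libraries (log2 fold change 0.79, SE 0.12, edgeR adjusted p = 9.79e-04). These 2 genes are near-identical copies, so the split of reads between them is uncertain. HSPA6, which is nearly silent without heat, had 0.137, 0.24 and 0.164 CPM in M-BSG, against 0.17, 0.182 and 0.0526 CPM in NC, with overlapping groups and no call. HSPA8, the abundant constitutive form, had 4853, 4439 and 4896 CPM in the M-BSG libraries, against 3748, 3585 and 3657 CPM in the NC libraries (log2 fold change 0.37, SE 0.0749, edgeR adjusted p = 0.00822), a call lost without NC 2 (adjusted p 0.0515). Per length, mean HSPA8 was at 2059 FPKM in M-BSG and 1661 FPKM in NC, far above HSPA2 at 15.7 FPKM in M-BSG and 4.16 FPKM in NC. HSPA14, a ribosome-bound member, stood at 34.6 ± 1.55 CPM in M-BSG and 23.3 ± 1.16 CPM in NC (SD, n = 3 each).

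Of 30 HSP90, small HSP and HSP40 genes 5 rose and 1 fell (3 and 1 without M-BSG 1). DNAJB1, the inducible HSP40, had 148, 144 and 157 CPM in the M-BSG libraries, against 90.5, 83.7 and 80.7 CPM in the NC libraries (log2 fold change 0.82, SE 0.0785, edgeR adjusted p = 2.05e-05). DNAJA1 had 405, 388 and 405 CPM in the M-BSG libraries, against 285, 284 and 281 CPM in the NC libraries (log2 fold change 0.49, SE 0.0654, edgeR adjusted p = 3.23e-04). HSPB8, a small HSP that fell, was scarce, with 0.11, 0.16 and 0.245 CPM in M-BSG, against 0.596, 0.623 and 0.894 CPM in NC (log2 fold change -2.02, SE 0.402, edgeR adjusted p = 0.00712). The HSF1 targets HSP90AA1 (0.13), HSPH1 (0.14), BAG3 (0.12) and HSPB1 (0.029) were not called. In the endoplasmic reticulum, 3 of 25 stress genes rose (12%, beside 3.22% of all tested genes) and none fell. HSPA5, the lumenal HSP70, had 829, 742 and 751 CPM in the M-BSG libraries, against 579, 588 and 582 CPM in the NC libraries (log2 fold change 0.41, SE 0.0681, edgeR adjusted p = 0.00209). HERPUD1, which helps degrade misfolded proteins, stood at 153 ± 10.3 CPM in M-BSG and 112 ± 1.65 CPM in NC, and DNAJB9 at 24.4 ± 1.42 CPM in M-BSG and 16.2 ± 1.1 CPM in NC (SD, n = 3 each). XBP1 (0.34) and SDF2L1 (0.11) were not called.

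Of 29 integrated stress response genes 3 rose (10.3%) and 2 fell (6.9%), beside 3.22% and 3.13% of all tested genes, and the list's median was -0.11. PPP1R15A, a phosphatase subunit that ends the response, had 382, 304 and 369 CPM in the M-BSG libraries, against 226, 212 and 219.7 CPM in the NC libraries (log2 fold change 0.68, SE 0.111, edgeR adjusted p = 0.00173). ATF5 stood at 34.5 ± 5.42 CPM in M-BSG and 22.1 ± 1.39 CPM in NC (SD, n = 3 each). The transcription factor ATF4 rose by 0.45 on the log2 scale. ASNS, an ATF4 target that makes asparagine, fell and had 4.66, 5.36 and 5.37 CPM in the M-BSG libraries, against 9.9, 9.11 and 9.39 CPM in the NC libraries (log2 fold change -0.88, SE 0.193, edgeR adjusted p = 0.0133). Both calls were lost in some fits (for ASNS, a call lost at adjusted p 0.0547 without NC 1; for ATF4, a call lost at adjusted p 0.0517 to 0.109 without M-BSG 1 or 3 or any NC library). CHAC1, another ATF4 target, fell by 0.48 on the log2 scale, a call lost at adjusted p 0.069 to 0.12 without M-BSG 2 or 3 or NC 1 or 3. DDIT3 (-0.69), TRIB3 (-0.021) and DDIT4 (-0.41) were not called. Without M-BSG 1, 2 genes of this list rose and 4 fell.

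Genes of iron handling bear on a material that carries magnetic particles. Of 25 tested, none rose and 2 fell (8% called, beside 6.35% of all tested genes). SLC25A37, the mitochondrial iron importer mitoferrin, had 131, 144 and 140.4 CPM in the M-BSG libraries, against 179, 183 and 178 CPM in the NC libraries (log2 fold change -0.38, SE 0.076, edgeR adjusted p = 0.00768). STEAP2, a metalloreductase, had 5.48, 9.14 and 7.31 CPM in the M-BSG libraries, against 10.2, 12.6 and 12 CPM in the NC libraries (log2 fold change -0.67, SE 0.17, edgeR adjusted p = 0.0313), a call lost at adjusted p 0.0599 to 0.132 without M-BSG 1 or 3 or NC 2 or 3, or with only the 2 groups fitted. The ferritin genes FTH1 (0.014) and FTL (0.06), the transferrin receptor TFRC (0.076) and the exporter SLC40A1 (-0.049) were not called and lay within 0.1 of 0. HMOX1, which releases iron from haem, was at 0.31 and not called. Of 31 NRF2 and peroxide-defence genes 2 rose (1 without M-BSG 1): GCLC, which starts glutathione synthesis, had 86.8, 94.9 and 92.9 CPM in the M-BSG libraries, against 70.9, 67.1 and 68.3 CPM in the NC libraries (log2 fold change 0.41, SE 0.0791, edgeR adjusted p = 0.00563), and SRXN1 rose by 0.27 on the log2 scale, a call lost at adjusted p 0.0731 to 0.129 without M-BSG 1 or 3 or any NC library, or with library size only, no count filter. NQO1 (0.14), TXNRD1 (-0.11) and GPX4 (0.028) were not called. Among 10 metallothionein and zinc genes SLC30A1, a zinc exporter, was the only call, with 36.9, 48.9 and 51.4 CPM in the M-BSG libraries, against 25.4, 28.5 and 30.3 CPM in the NC libraries (log2 fold change 0.70, SE 0.141, edgeR adjusted p = 0.00757), and MT2A was at 0.03.

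Ion and pH transport genes were likewise near the background: 2 of 37 rose and none fell. AQP3, a water and glycerol channel, had 3.61, 2.5 and 3.27 CPM in the M-BSG libraries, against 1.84, 0.909 and 0.815 CPM in the NC libraries (log2 fold change 1.4, SE 0.266, edgeR adjusted p = 0.00523). ATP1B1, a sodium pump subunit, rose by 0.28 on the log2 scale (a call lost at adjusted p 0.0554 to 0.158 without M-BSG 1 or 2 or any NC library, or with the length trend removed, library size only, no count filter, replicate block). The borate transporter SLC4A11 (-0.32) and the carbonic anhydrase CA12 (-0.12) were not called.

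Growth arrest and survival genes gave a few calls. Of 25 p53 targets 4 rose (16%, beside 3.22% of all tested genes) and none fell (3 rose and 1 fell without M-BSG 1). PLK2, a kinase of early cell-cycle checkpoints, had 141, 137 and 143 CPM in the M-BSG libraries, against 38.2, 37.4 and 37.2 CPM in the NC libraries (log2 fold change 1.90, SE 0.0795, edgeR adjusted p = 1.02e-08). CDKN1A, the inhibitor p21, had 157, 141 and 148 CPM in the M-BSG libraries, against 101, 96.2 and 88.6 CPM in the NC libraries (log2 fold change 0.64, SE 0.101, edgeR adjusted p = 0.00134). PPM1D, a phosphatase that ends p53 signalling, stood at 22.9 ± 2.29 CPM in M-BSG and 15.2 ± 1.36 CPM in NC (SD, n = 3 each). GADD45A rose by 0.45 on the log2 scale, a call lost at adjusted p 0.0562 to 0.103 without M-BSG 1 or 2 or any NC library. MDM2 (0.19), BAX (0.17), BBC3 (-0.47), ZMAT3 (-0.11) and TP53I3 (-0.042) were not called.

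Among 21 BCL2-family genes 4 rose and 1 fell (23.8% called, beside 6.35% of all tested genes). MCL1, a short-lived survival protein, had 1017, 1162 and 1143 CPM in the M-BSG libraries, against 665, 699 and 691 CPM in the NC libraries (log2 fold change 0.69, SE 0.0782, edgeR adjusted p = 7.92e-05). BCL2L11, which encodes the killer protein BIM, had 21.5, 23.2 and 27 CPM in the M-BSG libraries, against 14.1, 14.7 and 15.5 CPM in the NC libraries (log2 fold change 0.69, SE 0.14, edgeR adjusted p = 0.00773). BCL2L2, a survival protein, had 29.3, 34.9 and 31.5 CPM in the M-BSG libraries, against 48.6, 48 and 48.4 CPM in the NC libraries (log2 fold change -0.60, SE 0.0822, edgeR adjusted p = 4.30e-04). PMAIP1 (0.30) and BMF (0.32), both killers, rose (for PMAIP1, a call lost at adjusted p 0.0585 to 0.129 without M-BSG 2 or 3 or any NC library, or with library size only, no count filter; for BMF, a call lost at adjusted p 0.058 to 0.175 without any M-BSG library or NC 1 or 3, or with library size only, no count filter, replicate block). BCL2 (-0.25) and BCL2L1 (-0.0093) were not called. On library size only, 2 genes of this family rose and 2 fell. Of 26 death-receptor and caspase genes 1 rose and 1 fell. CFLAR, a caspase inhibitor, fell (-0.33; a call lost at adjusted p 0.0587 to 0.255 without M-BSG 1 or 3 or any NC library, or with RLE scaling, the length trend removed, only the 2 groups fitted, replicate block).

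DNA replication and mitosis genes gave few calls, where 6.35% of all tested genes were called. None of 34 DNA replication genes was called (1 lower on library size only, 1 higher and 2 lower with the gene length trend removed), with PCNA at 0.19, MCM2 at -0.081 and TYMS at -0.039 on the log2 scale. Of 35 mitosis genes AURKA rose (0.31), a call lost at adjusted p 0.0586 to 0.163 without M-BSG 1 or 2 or any NC library, or with library size only, while MKI67 (-0.19), CCNB1 (0.14) and TOP2A (-0.095) were not called. In the MYC network of 16 genes 3 rose: MXD1, an antagonist of MYC, had 30.9, 33.4 and 35.7 CPM in the M-BSG libraries, against 20.1, 22.5 and 24.4 CPM in the NC libraries (log2 fold change 0.58, SE 0.101, edgeR adjusted p = 0.00293), and MYC (0.42; a call lost at adjusted p 0.0671 to 0.0814 without M-BSG 3 or NC 2 or 3) and NCL (0.30; a call lost at adjusted p 0.0828 to 0.106 without M-BSG 1 or 3 or any NC library) rose too. Of 21 G1 cyclin and inhibitor genes 2 rose and 1 fell, and CCND1 (-0.087), CDK4 (-0.0085) and E2F1 (-0.032) were not called. The share called was 18.8% in the MYC network and 14.3% in the G1 list, beside 6.35% of all tested genes. In the G1 list CDC25A, which rose, and CDKN1B, which fell, lost their calls in several fits (adjusted p 0.052 to 0.117 and 0.0525 to 0.135).

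In metabolism, 3 of 29 cholesterol genes rose (10.3%, beside 3.22% of all tested genes) and none fell. HMGCS1, an early enzyme of the pathway, had 97.7, 115 and 112 CPM in the M-BSG libraries, against 56.6, 60.8 and 62.2 CPM in the NC libraries (log2 fold change 0.86, SE 0.0824, edgeR adjusted p = 2.11e-05). MYLIP, a ubiquitin ligase of cholesterol uptake, had 26.2, 30.4 and 31.7 CPM in the M-BSG libraries, against 11.3, 13.8 and 11.7 CPM in the NC libraries (log2 fold change 1.26, SE 0.124, edgeR adjusted p = 2.51e-05). IDI1, an isomerase further along the pathway, stood at 79.3 ± 2.19 CPM in M-BSG and 54.3 ± 3.36 CPM in NC (SD, n = 3 each). SQLE (0.17), a usual SREBP2 target, was not called. Of 31 hypoxia and glycolysis genes 3 rose and 2 fell (16.1% called, beside 6.35% of all tested genes). ADM, the vasodilator adrenomedullin, had 80.7, 68.2 and 74.1 CPM in the M-BSG libraries, against 29.8, 30.5 and 26.3 CPM in the NC libraries (log2 fold change 1.36, SE 0.0852, edgeR adjusted p = 3.54e-07), and SLC2A3, a glucose transporter, had 44.7, 51.8 and 49.8 CPM in the M-BSG libraries, against 27, 27.9 and 30.1 CPM in the NC libraries (log2 fold change 0.78, SE 0.0911, edgeR adjusted p = 1.07e-04). KDM3A rose (0.40; a call lost at adjusted p 0.0517 to 0.161 without M-BSG 2 or 3 or any NC library, or with library size only, no count filter, the strict filter), and ENO2 (-0.30; a call lost at adjusted p 0.0572 to 0.178 without M-BSG 1 or 2 or any NC library, or with RLE scaling, no count filter, only the 2 groups fitted, replicate block) and PFKFB4 (-0.34; a call lost at adjusted p 0.0518 to 0.148 without any M-BSG library or any NC library, or with no count filter, only the 2 groups fitted, replicate block) fell. LDHA (0.035), PDK1 (-0.38) and CA12 (-0.12) were not called.

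Matrix and bone genes gave few calls, with 3.7% of collagen genes called beside 6.35% of all tested genes. Of 27 collagen genes none rose and COL7A1 fell (-0.48), a call lost at adjusted p 0.0574 to 0.178 without any M-BSG library or NC 1 or 2, or with the length trend removed, while COL1A1, the main bone collagen, was at -0.17 and not called. ADAMTS1, a protease that cuts proteoglycans, had 13.7, 20.1 and 18.8 CPM in the M-BSG libraries, against 7.43, 7.14 and 5.5 CPM in the NC libraries (log2 fold change 1.39, SE 0.164, edgeR adjusted p = 1.20e-04). MMP1, an abundant collagenase in this line, had 4215, 3929 and 3516 CPM in the M-BSG libraries, against 3003, 2974 and 2979 CPM in the NC libraries (log2 fold change 0.38, SE 0.103, edgeR adjusted p = 0.0424), a call lost at adjusted p 0.0732 to 0.14 without M-BSG 1 or 2 or any NC library, or with the strict filter. MMP2 (0.0082), MMP9 (-0.071) and MMP14 (0.084) were not called. Of 17 osteoblast-lineage genes 2 rose, TWIST1 and ATF4 (1 without M-BSG 1), and RUNX2 (0.062), ALPL (-0.0006) and SPP1 (0.22) were not called.

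**Figure D3:**
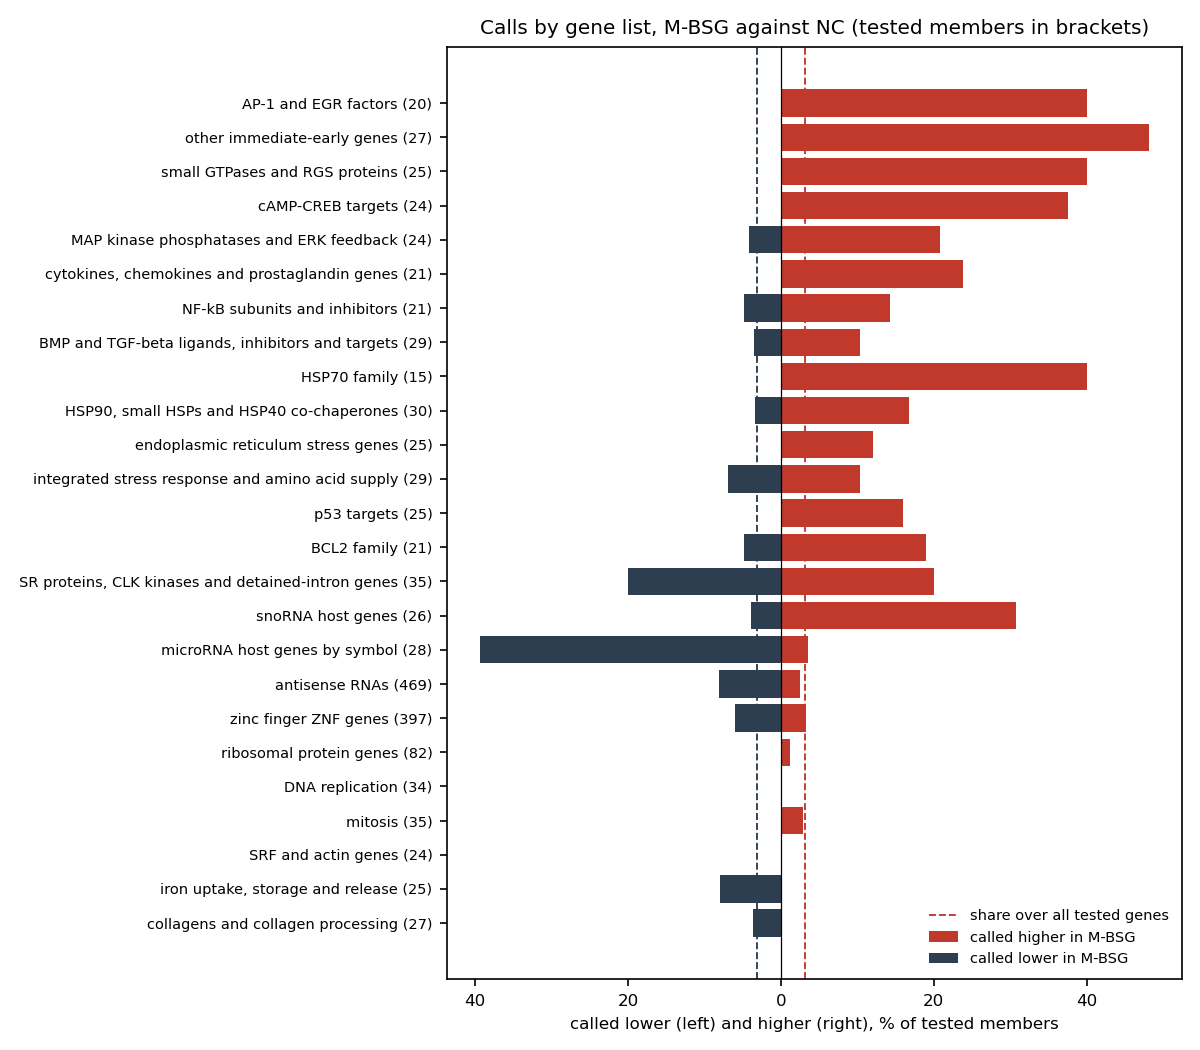
Share of tested members called higher (red, right of 0) and lower (dark, left of 0) in M-BSG for 25 gene lists and classes, in percent of the tested members, whose number stands in brackets. Dashed lines mark the shares over all tested genes, 3.22% higher and 3.13% lower, and other immediate-early genes reach 48.1% higher.

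RNA-processing genes moved in both directions. NEAT1, a nuclear long non-coding RNA that builds paraspeckles, had 29.5, 22.9 and 26.3 CPM in the M-BSG libraries, against 159, 164 and 162 CPM in the NC libraries (log2 fold change -2.62, SE 0.128, edgeR adjusted p = 3.26e-08). Among the paraspeckle proteins SFPQ rose and had 578, 667 and 624 CPM in the M-BSG libraries, against 394, 415 and 413 CPM in the NC libraries (log2 fold change 0.61, SE 0.0712, edgeR adjusted p = 1.06e-04), RBM14 fell by 0.32 on the log2 scale (a call lost at adjusted p 0.0662 to 0.0816 without M-BSG 2 or NC 1 or 3), and NONO (0.052) and PSPC1 (0.20) were not called. MALAT1, the neighbour of NEAT1 in the genome, had 101, 99.3 and 97.5 CPM in M-BSG, against 118, 135 and 132 CPM in NC, and its edgeR adjusted p of 0.0518 just missed the threshold. Of 35 SR proteins, CLK kinases and genes with detained introns 7 rose and 7 fell, and the same numbers held without M-BSG 1.

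SR proteins bind exons and recruit the spliceosome, and those called were all higher. SRSF6 had 397, 387 and 414 CPM in the M-BSG libraries, against 229, 221 and 222 CPM in the NC libraries (log2 fold change 0.84, SE 0.0708, edgeR adjusted p = 7.38e-06). TRA2A, a related splicing activator, stood at 81 ± 3.68 CPM in M-BSG and 54.4 ± 1.93 CPM in NC (SD, n = 3 each), and SRSF3 (0.61), SRSF10 (0.45), SRSF2 (0.33) and the helicase DDX5 (0.40) also rose. CCNL1, a cyclin tied to splicing, had 163, 149 and 168 CPM in the M-BSG libraries, against 88.2, 89.7 and 88 CPM in the NC libraries (log2 fold change 0.85, SE 0.0801, edgeR adjusted p = 1.68e-05), while its paralogue CCNL2 fell and had 150.3, 145 and 143 CPM in the M-BSG libraries, against 214, 212 and 206 CPM in the NC libraries (log2 fold change -0.53, SE 0.0732, edgeR adjusted p = 4.74e-04). LENG8, a nuclear RNA-export factor, had 53.3, 56.1 and 54.9 CPM in the M-BSG libraries, against 135, 134 and 129 CPM in the NC libraries (log2 fold change -1.28, SE 0.106, edgeR adjusted p = 6.45e-06). CLK4, a kinase of SR proteins, had 6.54, 5.91 and 6.03 CPM in the M-BSG libraries, against 10.4, 10.9 and 12.3 CPM in the NC libraries (log2 fold change -0.86, SE 0.113, edgeR adjusted p = 2.95e-04). OGT (-0.68), DDX17 (-0.71) and RBM5 (-0.35) fell with them. The calls of SRSF3, SRSF10, SRSF2, DDX5, OGT, DDX17 and RBM5 were not followed gene by gene in the alternative fits. CLK1 (-0.047), SRSF1 (-0.079) and SRSF7 (0.036) were not called. The helicase pair DDX5 and DDX17 therefore lay on opposite sides, as did CCNL1 and CCNL2.

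Primary transcripts that carry microRNAs were among the lowest. By symbol, 28 microRNA host genes were tested, 1 rose and 11 fell, in number the same without M-BSG 1, and their median was -0.46. MIR222HG had 5.75, 4.32 and 3.35 CPM in the M-BSG libraries, against 18.8, 15.4 and 15.8 CPM in the NC libraries (log2 fold change -1.90, SE 0.167, edgeR adjusted p = 1.02e-05). MIR23AHG had 8.05, 9.64 and 10.6 CPM in the M-BSG libraries, against 26.9, 23.8 and 22.6 CPM in the NC libraries (log2 fold change -1.37, SE 0.153, edgeR adjusted p = 7.53e-05). MIR17HG had 4.46, 3.38 and 3.41 CPM in the M-BSG libraries, against 9.62, 9.48 and 9.15 CPM in the NC libraries (log2 fold change -1.33, SE 0.292, edgeR adjusted p = 0.0138), a call lost at adjusted p 0.0515 to 0.068 without M-BSG 2 or 3 or NC 1 or 2. MIR22HG was the host that rose and had 68.7, 59 and 65.1 CPM in the M-BSG libraries, against 25.5, 24 and 23.7 CPM in the NC libraries (log2 fold change 1.4, SE 0.122, edgeR adjusted p = 9.04e-06). MIR29B2CHG (-3.46) and MIR4453HG (-1.60) fell, with NC means under 4 CPM. The mature microRNAs were not measured. They are shown, from RefSeq (GRCh38.p14), for 3 of the hosts that fell, with the seed (bases 2 to 8) in capitals, because several share 1 seed, the part that pairs with target transcripts. Inside MIR222HG on chromosome X, miR-221-3p and miR-222-3p share GCUACAU. Inside MIR17HG on chromosome 13, miR-17-5p and miR-20a-5p share AAAGUGC, and miR-19a-3p and miR-19b-3p share GUGCAAA. The 3 microRNAs of MIR23AHG on chromosome 19 have seeds of their own.
hsa-miR-221-3p: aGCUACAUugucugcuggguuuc
hsa-miR-222-3p: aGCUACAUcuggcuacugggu
hsa-miR-23a-3p: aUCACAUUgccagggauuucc
hsa-miR-27a-3p: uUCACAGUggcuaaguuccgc
hsa-miR-24-3p: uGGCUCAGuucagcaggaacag
hsa-miR-17-5p: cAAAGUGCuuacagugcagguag
hsa-miR-20a-5p: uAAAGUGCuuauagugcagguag
hsa-miR-19a-3p: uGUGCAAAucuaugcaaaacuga
hsa-miR-19b-3p: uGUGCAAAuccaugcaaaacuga

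Of 26 tested host genes of small nucleolar RNAs 8 rose and 1 fell (6 and 1 without M-BSG 1). Their median was 0.20, and 0.079 without M-BSG 1. SNHG12 had 49.7, 42.7 and 42.8 CPM in the M-BSG libraries, against 22.1, 19.3 and 21.9 CPM in the NC libraries (log2 fold change 1.10, SE 0.109, edgeR adjusted p = 2.78e-05). SNHG1 had 203, 164 and 176 CPM in the M-BSG libraries, against 115, 108 and 112 CPM in the NC libraries (log2 fold change 0.70, SE 0.0998, edgeR adjusted p = 6.26e-04). SNHG26 stood at 5.8 ± 1.19 CPM in M-BSG and 2.15 ± 0.278 CPM in NC (SD, n = 3 each). SNHG5 (0.68; a call lost at adjusted p 0.0596 without NC 3) and SNHG25 (1.12; a call lost at adjusted p 0.0675 to 0.0789 without NC 2 or 3) rose too, and SNHG20 (-0.83; a call lost at adjusted p 0.0553 to 0.0774 without M-BSG 2 or NC 1 or 2) fell. Most of these RNAs are spliced shells whose introns yield the small RNA.

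Long non-coding RNAs as a class lay lower. Of 1662 tested with a RefSeq type of lncRNA, 54 rose (3.25%) and 141 fell (8.48%), with a median log2 fold change of -0.25, and without M-BSG 1 the numbers were 47 and 112. Of 13286 protein-coding genes 424 rose (3.19%) and 318 fell (2.39%), with a median of 0.0049. The classes differ in abundance: the median NC level was 0.856 CPM for the non-coding RNAs and 27.0 CPM for the coding genes. Of 469 antisense RNAs 12 rose and 38 fell, and of 251 intergenic LINC RNAs 10 rose and 12 fell. The sources used here do not state whether counting used strand, so an antisense RNA cannot be told apart from its overlapping gene.

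MELTF-AS1 had 1.31, 0.986 and 0.873 CPM in the M-BSG libraries, against 4.23, 3.92 and 3.44 CPM in the NC libraries (log2 fold change -1.87, SE 0.231, edgeR adjusted p = 1.89e-04). SLC9A3-AS1 had 5.15, 4.13 and 4.64 CPM in the M-BSG libraries, against 11.1, 11.8 and 10.8 CPM in the NC libraries (log2 fold change -1.27, SE 0.162, edgeR adjusted p = 2.31e-04). ASB16-AS1 stood at 3.4 ± 0.061 CPM in M-BSG and 7.41 ± 0.362 CPM in NC and TMEM147-AS1 at 5.33 ± 0.298 CPM in M-BSG and 9.31 ± 0.415 CPM in NC (SD, n = 3 each). XPC-AS1 rose instead and stood at 1.21 ± 0.219 CPM in M-BSG and 0.0805 ± 0.0259 CPM in NC (SD, n = 3 each). Of the intergenic RNAs LINC00641 rose and had 30.9, 46.3 and 42.6 CPM in the M-BSG libraries, against 10.2, 11.9 and 9.75 CPM in the NC libraries (log2 fold change 1.91, SE 0.214, edgeR adjusted p = 7.53e-05). LINC02560 had the highest fold change of all tested genes, 8.00, at 2.9, 2.77 and 3.76 CPM in M-BSG and 0.0284, 0 and 0 CPM in NC, which were below the detection floor. LINC00173 had the lowest, -4.02, at 0.0274, 0 and 0.0818 CPM in M-BSG and 0.284, 0.909 and 0.71 CPM in NC.

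**Figure D4:**
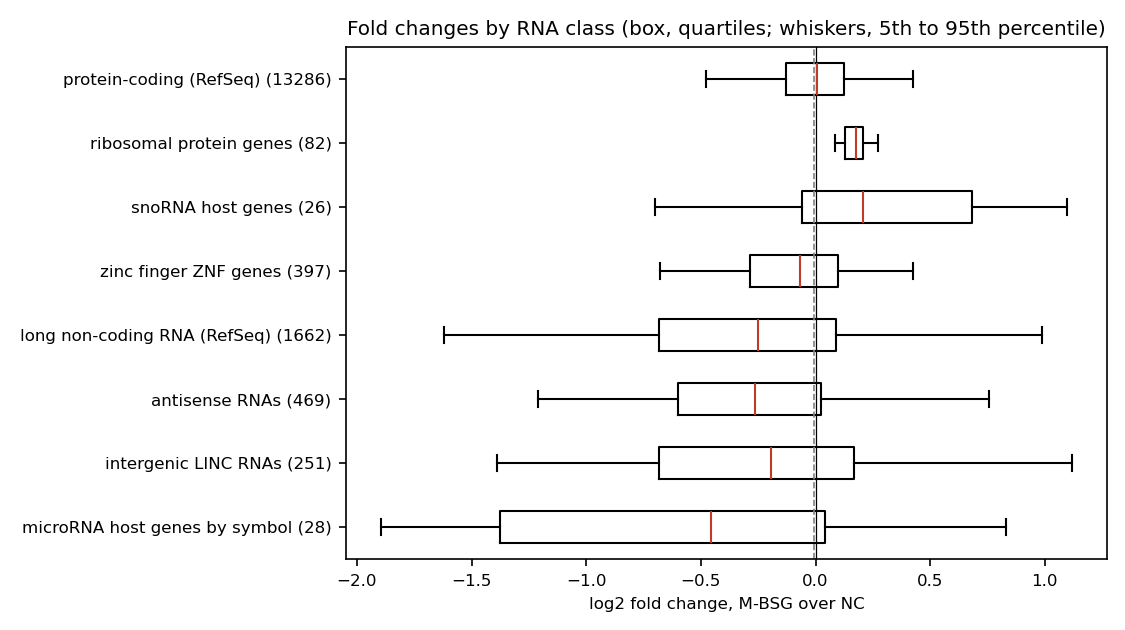
Log2 fold change of M-BSG over NC (x) for 8 overlapping RNA classes, with the number of tested genes in brackets. Boxes span the quartiles with a red median, whiskers run from the 5th to the 95th percentile, the dashed line is the median of all genes, and the medians are -0.25 for long non-coding RNAs and 0.0049 for protein-coding genes.

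Zinc finger genes named ZNF, mostly KRAB repressors of transposable elements, gave 13 higher and 24 lower calls among 397 tested (9 and 13 without M-BSG 1). The higher share was 3.27% and the lower 6.05%, beside 3.22% and 3.13% of all tested genes. The median of the ZNF genes was -0.067, and -0.04 without M-BSG 1. ZNF92 had 27.2, 28.3 and 30.1 CPM in the M-BSG libraries, against 9.67, 10.4 and 11 CPM in the NC libraries (log2 fold change 1.46, SE 0.132, edgeR adjusted p = 1.29e-05). ZNF589 had 20.3, 21.4 and 22 CPM in the M-BSG libraries, against 46.1, 41.8 and 46 CPM in the NC libraries (log2 fold change -1.07, SE 0.132, edgeR adjusted p = 1.86e-04). ZNF780A stood at 6.3 ± 1.01 CPM in M-BSG and 14 ± 1.58 CPM in NC, ZNF789 at 5.58 ± 0.461 CPM in M-BSG and 11.4 ± 1.25 CPM in NC and ZNF703, an oncogenic corepressor, at 53.4 ± 5.64 CPM in M-BSG and 33.9 ± 1.34 CPM in NC (SD, n = 3 each). ZNF703 lay on the higher side with ZNF92, the others on the lower side.

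Translation genes gave few calls. All 82 ribosomal protein genes had a positive log2 fold change, with a median of 0.17, and only RPL22L1, a paralogue of RPL22, was called, with 58.7, 44.1 and 46.1 CPM in the M-BSG libraries, against 27.9, 23.2 and 23.7 CPM in the NC libraries (log2 fold change 0.99, SE 0.168, edgeR adjusted p = 0.00238). Without M-BSG 1, the library with the highest ribosomal share, the median was 0.045. EIF4A2, a helicase of the cap-binding complex, had 549, 550.0 and 537 CPM in the M-BSG libraries, against 375, 388 and 387 CPM in the NC libraries (log2 fold change 0.51, SE 0.0598, edgeR adjusted p = 1.17e-04), and EIF1 stood at 788 ± 46.9 CPM in M-BSG and 549 ± 43.6 CPM in NC (SD, n = 3 each), a call lost without NC 2 (adjusted p 0.0658). Of 13 genes of the mitochondrial genome 4 rose, with a median of 0.22. ND1, a subunit of complex I, had 4289, 3317 and 3541 CPM in the M-BSG libraries, against 2642, 2322 and 2357 CPM in the NC libraries (log2 fold change 0.61, SE 0.104, edgeR adjusted p = 0.00269). ND2, ND6 and CYTB rose by 0.55, 0.46 and 0.43 on the log2 scale, none of them held in every fit (for ND2, a call lost at adjusted p 0.0638 to 0.0708 without NC 2 or 3; for ND6, a call lost at adjusted p 0.055 to 0.0938 without M-BSG 2 or any NC library, or with the length trend removed; for CYTB, a call lost at adjusted p 0.0551 to 0.0626 without NC 2 or 3). Mitochondrial genes took 7.82%, 6.56% and 6.85% of counts in M-BSG and 6.75%, 5.98% and 6.22% in NC. None of 91 nuclear respiratory subunits and none of 46 proteasome genes was called, while 1 of each was called higher with the gene length trend removed and 1 proteasome gene lower on library size only.

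Further genes among the 20 highest belong to no list. LSMEM1, a membrane protein of little-known function, had 9.23, 16.4 and 11.9 CPM in the M-BSG libraries, against 1.28, 1.06 and 1.71 CPM in the NC libraries (log2 fold change 3.21, SE 0.258, edgeR adjusted p = 5.38e-06). OVGP1, an oviduct glycoprotein, had 24.1, 28 and 24.4 CPM in the M-BSG libraries, against 3.18, 3.3 and 3.02 CPM in the NC libraries (log2 fold change 3.01, SE 0.159, edgeR adjusted p = 7.49e-08). GPR50, a receptor related to those for melatonin, had 12.2, 10.3 and 14.7 CPM in the M-BSG libraries, against 1.79, 1.58 and 1.95 CPM in the NC libraries (log2 fold change 2.81, SE 0.204, edgeR adjusted p = 2.10e-06). NUDT17, a predicted nucleotide hydrolase, had 14.5, 16.7 and 17.3 CPM in the M-BSG libraries, against 5.11, 4.52 and 3.65 CPM in the NC libraries (log2 fold change 1.87, SE 0.198, edgeR adjusted p = 5.14e-05). All 4 were at 1 to 6 CPM in NC and several-fold above that in each M-BSG library. Among the 20 lowest, GATD1 had 17.9, 17.5 and 18.5 CPM in the M-BSG libraries, against 42.2, 40.5 and 37.2 CPM in the NC libraries (log2 fold change -1.16, SE 0.0979, edgeR adjusted p = 7.38e-06), D2HGDH, a mitochondrial dehydrogenase of D-2-hydroxyglutarate, had 8.9, 10.8 and 9.49 CPM in the M-BSG libraries, against 19.4, 22.2 and 20.9 CPM in the NC libraries (log2 fold change -1.10, SE 0.12, edgeR adjusted p = 6.66e-05), and NRBP2, a pseudokinase, had 3.94, 3.92 and 3.22 CPM in the M-BSG libraries, against 9.3, 7.95 and 8.15 CPM in the NC libraries (log2 fold change -1.20, SE 0.149, edgeR adjusted p = 1.93e-04). TRPV1, the heat- and acid-gated cation channel, had 2.71, 4.24 and 3.49 CPM in the M-BSG libraries, against 7.8, 6.98 and 7.05 CPM in the NC libraries (log2 fold change -1.06, SE 0.183, edgeR adjusted p = 0.00271).

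Some calls rest on RNAs that were hardly present in control cells. Of the 496 higher genes, 140 had an NC mean under 1 CPM, as did 35 of the 483 lower ones. For 12 of the higher genes no NC library held a count, and for none of the lower genes did all M-BSG libraries hold 0. A gene at 0 in every NC library passed the count filter only through libraries of the other groups. A gene scarce in NC also has little room to be called lower, so these counts do not compare higher with lower genes. LRRC14B had 35, 19 and 22 counts in M-BSG and 0 in each NC library, at least 25.7-fold higher when the NC group is set at 3 counts over its 3 libraries. TUBB1, a beta-tubulin of platelets, had 21, 12 and 28 counts in M-BSG and 0 in each NC library, at least 20.6-fold higher on the same floor. MYOZ3, a protein of the muscle Z-disc, had 3, 7 and 10 counts in M-BSG and 0 in each NC library, at least 6.73-fold higher. The other 9 had bounds from 5.06-fold to 13.1-fold. These 3 genes were picked after their values were seen, and their calls were not followed in the alternative fits.

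Compared with BSG, the group titled for the same glass without a magnetic prefix, M-BSG cells held lower levels of several genes that stood above NC in M-BSG. edgeR called none higher (0.0% of those tested) and 20 lower (0.13%), 15 of them by at least 2-fold. At an unadjusted p under 0.05 it found 513 genes higher and 529 lower, while DESeq2 called 13 higher and 37 lower and limma-voom 1 and 27. The number at that unadjusted p, 1042 in all, was 3415 without M-BSG 1, 522 without M-BSG 2, 572 without M-BSG 3, 556 without BSG 1 and 1967 without BSG 2. BSG 1 stood apart from its replicates, with a chi-square per degree of freedom of 65.4 against BSG 2 and 48.2 against BSG 3, where BSG 2 and 3 gave 7.87. Ribosomal protein genes took 11.3% of counts in BSG 1, 8.41% in BSG 2 and 9.18% in BSG 3. RASD1 had 7.91, 9.27 and 6.05 CPM in M-BSG, against 21.7, 21.6 and 19.8 CPM in BSG (log2 fold change -1.44, SE 0.182, edgeR adjusted p = 0.00471). ID2 had 23.1, 19.6 and 16.7 CPM in M-BSG, against 48.6, 37.9 and 44.2 CPM in BSG (log2 fold change -1.14, SE 0.145, edgeR adjusted p = 0.00471). RGS2 had 23.7, 20.9 and 19.3 CPM in M-BSG, against 46.4, 41.5 and 42.6 CPM in BSG (log2 fold change -1.03, SE 0.105, edgeR adjusted p = 0.00138). In these 3 genes the M-BSG libraries lay below every BSG library and above every NC library. Over all tested genes the M-BSG and BSG libraries did not overlap for 8.89%, with M-BSG above for 4.08% and below for 4.82%. H2BC21, a histone H2B gene, had 5.72, 5.67 and 3.9 CPM in M-BSG, against 15, 13 and 19.6 CPM in BSG (log2 fold change -1.63, SE 0.186, edgeR adjusted p = 0.00268), and SNAI1 had 42.5, 49 and 45.7 CPM in M-BSG, against 82.1, 91.3 and 85.9 CPM in BSG (log2 fold change -0.92, SE 0.131, edgeR adjusted p = 0.0094). HSPA1A (-0.81), CITED2 (-0.75) and HEXIM1 (-0.60) were called lower with smaller fold changes. The calls of RASD1, ID2, SNAI1, CITED2, HSPA1A and HEXIM1 were lost without M-BSG 3 (adjusted p 0.0558, 0.0568, 0.0837, 0.0568, 0.0568 and 0.0937), and without M-BSG 2 those of HSPA1A and HEXIM1 (adjusted p 0.071 and 0.0532). HEXIM1 also lost its call without BSG 3 and in the fit of only these groups (adjusted p 0.0526 and 0.0587). The count of lower genes was 3 without M-BSG 3, 11 without M-BSG 2, 13 without M-BSG 1 or BSG 3, 14 without BSG 2 and 16 without BSG 1.

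The strongest immediate-early genes gave no such call. FOS had 224, 248 and 256 CPM in M-BSG, against 287, 323 and 293 CPM in BSG (log2 fold change -0.31, SE 0.141, edgeR adjusted p = 0.635). EGR1 had 272, 243 and 327 CPM in M-BSG, against 204, 252 and 243 CPM in BSG (log2 fold change 0.27, SE 0.195, edgeR adjusted p = 0.638). FOSB had 80.5, 82.1 and 91.3 CPM in M-BSG, against 92.9, 116 and 104 CPM in BSG (log2 fold change -0.30, SE 0.22, edgeR adjusted p = 0.638). FOS and FOSB were below every BSG library in M-BSG and EGR1 overlapped, none of them past the test, which does not show that the groups were alike. NEAT1 had 29.5, 22.9 and 26.3 CPM in M-BSG, against 19.1, 20.3 and 25.7 CPM in BSG (log2 fold change 0.27, SE 0.125, edgeR adjusted p = 0.635), and PLK2 was at -0.11 and NFKBIA at -0.25 on the log2 scale, without a call. Of the 25 iron genes none was called in this contrast. In both comparisons M-BSG is the same 3 libraries, so they are not independent of each other.

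Compared with M-BSG-Hot, the group titled with the same material and a plus sign, M-BSG cells held higher levels of several immediate-early genes: 4 of 20 AP-1 and EGR genes were higher and none lower, and 4 of 27 other immediate-early genes were higher and 1 lower. edgeR called 92 genes higher (0.597%) and 15 lower (0.0974%), 36 of the higher by at least 2-fold (0.234%). All M-BSG libraries lay above all M-BSG-Hot libraries for 7.5% of tested genes and below them for 6.28%. FOSB had 80.5, 82.1 and 91.3 CPM in M-BSG, against 16.3, 39.4 and 32.7 CPM in M-BSG-Hot (log2 fold change 1.52, SE 0.227, edgeR adjusted p = 0.00773). EGR1 had 272, 243 and 327 CPM in M-BSG, against 67.7, 136 and 129.9 CPM in M-BSG-Hot (log2 fold change 1.34, SE 0.199, edgeR adjusted p = 0.00767). ZFP36 had 23.5, 22.5 and 25.3 CPM in M-BSG, against 6.2, 11.7 and 10.7 CPM in M-BSG-Hot (log2 fold change 1.32, SE 0.195, edgeR adjusted p = 0.00749). M-BSG-Hot 1 was the lowest library for all 3 genes, and no M-BSG library reached down to the M-BSG-Hot range. RASL11A had 8.08, 9.54 and 8.65 CPM in M-BSG, against 2.26, 3.65 and 3.61 CPM in M-BSG-Hot (log2 fold change 1.46, SE 0.197, edgeR adjusted p = 0.00511), and ZNF92 had 27.2, 28.3 and 30.1 CPM in M-BSG, against 9.7, 14.8 and 10.6 CPM in M-BSG-Hot (log2 fold change 1.29, SE 0.131, edgeR adjusted p = 0.00213). Non-coding RNAs were called too: KCNQ1OT1, a nuclear antisense RNA of an imprinted locus, had 8.9, 16.9 and 19.4 CPM in M-BSG, against 3.4, 5.45 and 3.91 CPM in M-BSG-Hot (log2 fold change 1.83, SE 0.29, edgeR adjusted p = 0.0105), SNHG4 was at 1.61 and LINC00641 at 1.23 on the log2 scale. Of the SR protein and CLK list 8 of 35 were higher and none lower. In the fit of only these 2 groups 7 genes were higher and 3 lower, and FOSB, EGR1, ZFP36 and KCNQ1OT1 lost their calls (adjusted p 0.0536 to 0.0627). LINC00641 lost its call without M-BSG 2, M-BSG 3, M-BSG-Hot 1 or M-BSG-Hot 3 (adjusted p 0.0601 to 0.105), and KCNQ1OT1 also without M-BSG 3 or M-BSG-Hot 1 (adjusted p 0.0724 and 0.0823).

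The lower side of that contrast was led by histone genes, 8 of 32 tested. H3C13 (-5.19), H1-5 (-4.30), H2BC10 (-3.92), H2BC9 (-3.72), H1-4 (-3.34), H3C8 (-2.92) and H4C5 (-2.37) were under 2 CPM in every library of both groups, with M-BSG values near the detection floor, and were named after their values were seen. Every one of these 7 calls was lost in 3 to 8 of the alternative fits, without M-BSG 3 in each case (adjusted p up to 0.208). H2BC21 had 5.72, 5.67 and 3.9 CPM in M-BSG, against 11.6, 13.7 and 16.4 CPM in M-BSG-Hot (log2 fold change -1.44, SE 0.186, edgeR adjusted p = 0.00478). SLCO5A1, an organic anion transporter family member, had 3.01, 2.98 and 3.3 CPM in M-BSG, against 8.32, 6.98 and 6.46 CPM in M-BSG-Hot (log2 fold change -1.23, SE 0.15, edgeR adjusted p = 0.00373). ID2 had 23.1, 19.6 and 16.7 CPM in M-BSG, against 40.1, 33.7 and 43.4 CPM in M-BSG-Hot (log2 fold change -0.98, SE 0.145, edgeR adjusted p = 0.00749), lost without M-BSG 3 (adjusted p 0.0553). RASD1 (-0.93), the chemokine receptor CXCR4 (-0.70), ZSCAN32 (-0.47), CCN1 (-0.38) and GALNT18 (-0.36) were lower with lost calls: for RASD1, a call lost at adjusted p 0.0652 to 0.197 without M-BSG 1 or 3 or M-BSG-Hot 2 or 3, or with only the 2 groups fitted, for CXCR4, a call lost at adjusted p 0.0687 with only the 2 groups fitted, for ZSCAN32, a call lost at adjusted p 0.0501 to 0.182 without any M-BSG library or M-BSG-Hot 1 or 2, or with no count filter, only the 2 groups fitted, for CCN1, a call lost at adjusted p 0.0701 to 0.177 without any M-BSG library or M-BSG-Hot 1 or 3, or with only the 2 groups fitted, and for GALNT18, a call lost at adjusted p 0.0601 to 0.191 without any M-BSG library or any M-BSG-Hot library, or with the length trend removed, no count filter, only the 2 groups fitted. Of the genes named, H2BC21, ID2 and RASD1 were called lower in M-BSG in both this contrast and the one with BSG. Both contrasts use the same 3 M-BSG libraries. The counts were 22 and 3 without M-BSG 3, 45 and 5 without M-BSG 2, 75 and 10 without M-BSG 1, 27 and 8 without M-BSG-Hot 1, 63 and 6 without M-BSG-Hot 2, and 60 and 7 without M-BSG-Hot 3.

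**Figure D5:**
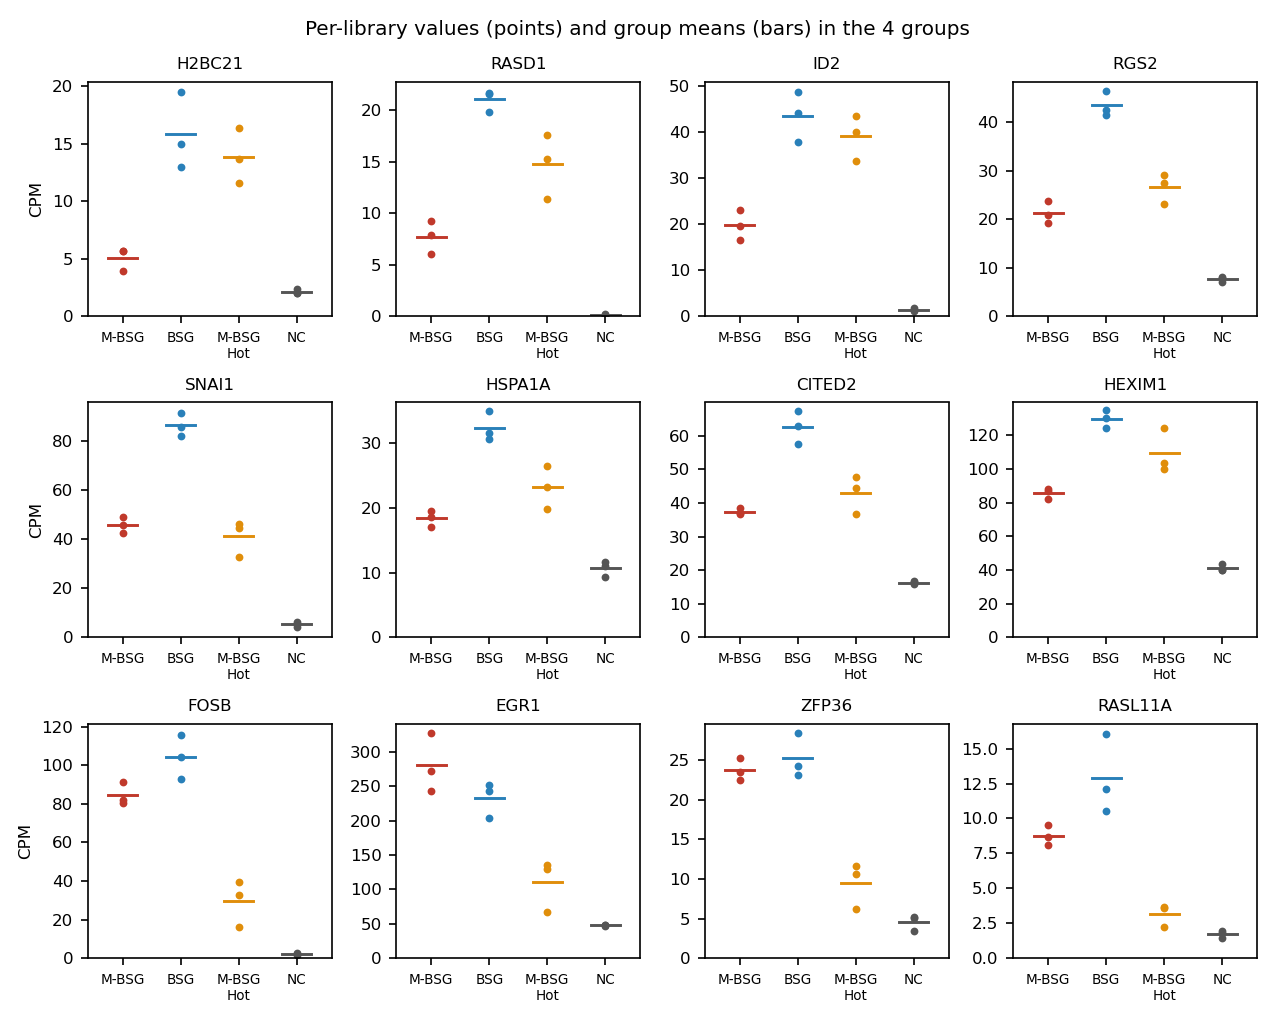
CPM per library (points) and group means (bars) of 12 genes in M-BSG, BSG, M-BSG-Hot and NC, with y axes that start at 0. RASD1, ID2, RGS2 and SNAI1 sit below every BSG library in M-BSG, while FOSB, EGR1, ZFP36 and RASL11A sit above the M-BSG-Hot libraries, and all 12 genes sit above NC in M-BSG.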

How the data were processed

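RNA-seq libraries of 143B cells were analysed from the gene count and FPKM tables that the authors deposited. The counts were deposited as raw whole numbers per gene symbol, and the FPKM values deposited by the authors were the same counts scaled by gene length and library total (100% matched within a relative tolerance of 1e-06), so FPKM was used only to compare levels between genes. Per the labels' protocols, a Qiagen kit gave the RNA and SMARTER mRNA-Seq chemistry the libraries. The submitters' processing notes name GRCm38 and mm10, which are mouse builds, while the symbols are human, so no coordinates were attached to the counts. The sources used here name no aligner, counter or strand setting.

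All 12 libraries entered 1 edgeR 4.0.16 quasi-likelihood fit in R 4.3.3 with TMM scaling (factors 0.951 to 1.05), a minimum count of 10 in filterByExpr and Benjamini-Hochberg adjustment at 0.05 over the 15407 genes tested. CPM values are TMM-scaled. Alternatives used other scalings, filters, a gene length correction, a replicate block, only the groups compared, DESeq2 1.42.0, limma-voom 3.58.1 and each library left out. The fit was also run on counts simulated from its own gene means and spread, with 200 genes changed and no library set apart. Such a run does not test how the fit handles a library like M-BSG 1. The members, gene lists and motifs were chosen with earlier results of these data known. Named genes were the 20 highest and 20 lowest called genes averaging 5 CPM or more with groups that did not overlap, up to 6 called genes of each list by adjusted p with family members that were not called, and 8 in each direction for the other 2 contrasts. Symbols were matched to RefSeq directly (22776) or by synonym (276), and 1128 had no match. With 3 libraries a group, an exact permutation test of a single gene cannot go below p = 0.1, so none was used. Some members of the lists are counted but not reported here by name.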

Additional observations from a re-analysis of the deposited data

How the results depend on the processing

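Against NC, no gene called in the fit reported was called in the opposite direction under any alternative. The number of higher genes was 787 once the length trend was removed, 318 under the strict filter, and 295 to 448 when 1 library was left out, where the number of lower genes was 248 to 345. Of 177 genes followed for this comparison 53 lost their call under some alternative, 25 of them under one other than a left-out library, and none reversed. Called genes outside these 177, such as EGR3, RND1 and DDX5, were not followed, so the lack of a lost call beside them says nothing. The cause was not tested. Against BSG, the number of higher genes, 0 in the fit reported, was 1 on library size only, 6 with no count filter, 3 with the length trend removed, 2 with the replicate block, 13 with DESeq2, 1 with limma-voom and 0 to 1 with a library left out. The number of lower genes was 32 with no count filter, 9 under the strict filter, 37 with DESeq2 and 3 to 16 with a library left out. Against M-BSG-Hot, the number of higher genes was 178 with the length trend removed, 7 with only the 2 groups fitted, 229 with DESeq2 and 22 to 75 with a library left out. The number of lower genes was 7 under the strict filter, 35 with the length trend removed, 3 with only the 2 groups fitted, 47 with DESeq2 and 3 to 10 with a library left out.

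Replicate numbers were not taken as pairs in the fit reported. Deviations of same-numbered M-BSG and NC libraries from their group means correlated at 0.18, 0.076 and 0.059, and those of unlike number at -0.16 to 0.092. For M-BSG and BSG the values were 0.41, 0.22 and 0.073, and -0.32 to 0.19 for unlike numbers. For M-BSG and M-BSG-Hot they were -0.29, -0.0054 and -0.078, and -0.25 to 0.29 for unlike numbers. Whether same-numbered libraries share a batch was not tested. With the replicate block 477 genes were higher and 471 lower against NC, 2 and 21 against BSG, and 89 and 14 against M-BSG-Hot. Counts of a few reads limit the genes near the detection floor, and 3 libraries a group of unknown origin limit every comparison. Every pair of replicates differed beyond sampling noise, with a chi-square per degree of freedom of 3.43 to 65.4. M-BSG 1 stood apart, as did BSG 1 and, less so, NC 1 (10.4 and 9.07, against 3.43 for NC 2 and 3). These libraries also had the highest ribosomal share of their groups, 9.95% in M-BSG 1, 11.3% in BSG 1 and 8.39% in NC 1. In M-BSG-Hot the highest share was in library 3 (9.86%). The source of this pattern was not tested.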
